A study of Mus musculus with 36 samples.

Results

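The endothelial genes described here are the 10 genes *Pecam1*, *Cdh5*, *Kdr*, *Flt1*, *Tek*, *Tie1*, *Emcn*, *Cldn5*, *Egfl7* and *Esam*, taken by gene name from the 22761 genes of the deposited expression values. All 10 were found, and each is followed through 36 RNA sequencing libraries of mouse cells, 4 in each of 9 groups. The ex-fetu groups were nephron progenitors (E11.5_NP, E12.5_NP), stromal progenitors (E11.5_SP, E12.5_SP) and ureteric bud (E11.5_UB, E12.5_UB) from CD1 embryonic kidneys, at 11.5 or 12.5 days of gestation. The groups derived from mouse embryonic stem cells (mESC) were iNP and iSP from the E14 line and iUB, called eUB in the study's own text, from a line named Sox9-mCherry. The sorting and RNA methods give that name, while the line-making methods describe a Sox8-mCherry line made from IB10 mESC. Each ex-fetu sample was a pool over the litter of a mouse, and an mESC sample pooled the embryoid bodies of 1 differentiation batch, so n counts pools. NP, iNP, SP and iSP cells were sorted by ITGA8 and PDGFRA after cells positive for CD31, the protein of *Pecam1*, and for EpCAM or RET had been gated out. The gates were RET and EpCAM for UB and EpCAM and mCherry for iUB, and no CD31 gate is described for either. The labels of the ex-fetu UB samples disagree on stage, since those titled E11.5 list an E12.5 cell source and those titled E12.5 an E11.5 one. The titles were used.

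Endothelial cells line blood vessels, and in the embryonic kidney they form a plexus around the ureteric bud and the mesenchyme that it invades. *Kdr* and *Flt1* encode receptors for vascular endothelial growth factor (VEGF): *Kdr* transmits most of its signal, and *Flt1* binds it tightly and acts largely as a decoy. *Tek* encodes the receptor of the angiopoietins and *Tie1* its partner. *Cdh5* (VE-cadherin), *Pecam1* (CD31), *Esam* and *Cldn5* (claudin 5) encode adhesion proteins of the contacts between endothelial cells, *Emcn* encodes a sialomucin of their surface, and *Egfl7* encodes a secreted protein of the vessel wall whose gene also holds the microRNA gene *Mir126a*. Several are not restricted to endothelium: *Pecam1* is also made by blood cells, and *Tek* has been used to mark some mesenchymal and blood-forming lineages.

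Values are read counts that the authors scaled to library size (normalised CPM). Each library held between 13 and 52.5 M reads counted on genes (median 27.4 M), and 3 reads, taken as the limit of detection, corresponded to 0.0605 to 0.223 normalised CPM. The libraries carried the markers of their labels. The summed level of 8 ureteric bud genes was at 4129 to 4362 in E11.5_UB, 2170 to 3712 in E12.5_UB and 3201 to 3559 in iUB, and at most 320.2 in any other library. The sum of 8 nephron progenitor genes was at least 513.6 in every NP and iNP library, and that of 8 stromal progenitor genes at least 2280 in every SP and iSP library. Other cell types were also represented. The sum of 12 macrophage genes was at 94.4 to 162.2 in E11.5_UB and 77.9 to 135.0 in E12.5_UB, and at most 3.34 elsewhere. The sum of 9 erythroid genes, mostly globins, was at 82.7 to 1582 in E11.5_SP and 287.3 to 2899 in E12.5_SP, and at most 89.98 in any other ex-fetu library and 0.902 in any mESC library.

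Promoter sequences for 7 of the 10 genes were found in RefSeq's table for GRCm38.p6, 250 bases before to 50 after each start. They are shown for 3 genes that followed the mean of the others across libraries (*Tie1*, *Kdr* and *Cldn5*) and for 1 that did not (*Tek*), with each GGAA or TTCC, the core bound by ETS factors read on either strand, in capitals.
*Tie1*, chr4:118489800-118490099, minus strand: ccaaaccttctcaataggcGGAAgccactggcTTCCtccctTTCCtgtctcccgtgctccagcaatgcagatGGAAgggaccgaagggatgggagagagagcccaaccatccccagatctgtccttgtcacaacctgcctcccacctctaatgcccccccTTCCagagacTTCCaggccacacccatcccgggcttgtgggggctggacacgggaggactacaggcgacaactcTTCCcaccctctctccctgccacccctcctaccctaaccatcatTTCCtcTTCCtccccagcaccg
*Kdr*, chr5:75978406-75978705, minus strand: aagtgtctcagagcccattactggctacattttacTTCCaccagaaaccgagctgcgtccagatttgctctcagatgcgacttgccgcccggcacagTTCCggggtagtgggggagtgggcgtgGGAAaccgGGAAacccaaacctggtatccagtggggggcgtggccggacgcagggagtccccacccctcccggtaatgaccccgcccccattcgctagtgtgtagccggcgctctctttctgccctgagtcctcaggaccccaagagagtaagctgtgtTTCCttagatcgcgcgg
*Cldn5*, chr16:18776597-18776896, plus strand: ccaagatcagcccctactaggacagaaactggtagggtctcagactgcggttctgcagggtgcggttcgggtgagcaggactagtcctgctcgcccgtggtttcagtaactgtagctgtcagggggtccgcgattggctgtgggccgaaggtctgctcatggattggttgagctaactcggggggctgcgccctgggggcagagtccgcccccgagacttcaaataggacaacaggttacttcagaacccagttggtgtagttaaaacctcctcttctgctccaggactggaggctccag
*Tek*, chr4:94739039-94739338, plus strand: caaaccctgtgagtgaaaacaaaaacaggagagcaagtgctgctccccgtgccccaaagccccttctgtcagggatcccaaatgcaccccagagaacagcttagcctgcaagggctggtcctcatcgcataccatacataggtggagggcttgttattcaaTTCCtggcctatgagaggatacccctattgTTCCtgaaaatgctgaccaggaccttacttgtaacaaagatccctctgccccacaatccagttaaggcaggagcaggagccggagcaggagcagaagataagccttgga
The *Tie1* window held 9 of these motifs, a number reached by 1.59% of all 32851 promoter windows. *Kdr* held 5, a number reached by 28.6% of windows, *Tek* held 2 (reached by 84.6%) and *Cldn5* none. At least 1 was present in 96.0% of all windows, and across the 9 windows of the 7 genes, 3 of them of *Egfl7*, the number ran from 0 to 9 with a median of 4, beside a median of 3 over all windows. These are counts of letters and say nothing of binding.

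The 10 genes lie on several chromosomes (GRCm38, GENCODE vM21): *Kdr* (ENSMUSG00000062960) at chr5:75932827-75978458 and *Flt1* (ENSMUSG00000029648) at chr5:147561604-147726011, *Tek* (ENSMUSG00000006386) at chr4:94739289-94874976 and *Tie1* (ENSMUSG00000033191) at chr4:118471191-118490061, *Cdh5* (ENSMUSG00000031871) at chr8:104101625-104144511, *Pecam1* (ENSMUSG00000020717) at chr11:106654217-106750628, *Cldn5* (ENSMUSG00000041378) at chr16:18776847-18778262, *Esam* (ENSMUSG00000001946) at chr9:37528078-37538319, *Emcn* (ENSMUSG00000054690) at chr3:137341067-137432185 and *Egfl7* (ENSMUSG00000026921) at chr2:26580014-26593120. Values cover the exons of each whole gene.

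The 10 genes did not share a single order of groups. Summed over the 10, the level was 17.3 to 49.6 normalised CPM in E11.5_NP, 35.4 to 71.0 in E11.5_SP, 31.0 to 42.3 in E11.5_UB, 20.01 to 49.0 in E12.5_NP, 39.0 to 52.0 in E12.5_SP and 23.2 to 27.8 in 3 of the 4 E12.5_UB libraries, with the first E12.5_UB library (E12.5_UB-1) apart at 146.8. It was 88.4 to 158.7 in iNP, 61.7 to 92.1 in iSP and 26.0 to 28.4 in iUB. All iNP libraries thus stood above all ex-fetu libraries other than E12.5_UB-1. Per kilobase of exon, which allows levels of different genes to be set side by side, *Cldn5* had the highest mean level in iNP (17.1 normalised CPM per kb), followed by *Egfl7* (6.36) and *Kdr* (3.32). In iUB the order was different: *Egfl7* stood at 3.63 and *Tek* at 2.08 per kb, and no other member exceeded 0.408 (*Esam*). These are bulk values, in which fewer cells of a type and less RNA per cell cannot be told apart.

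**Figure D1:**
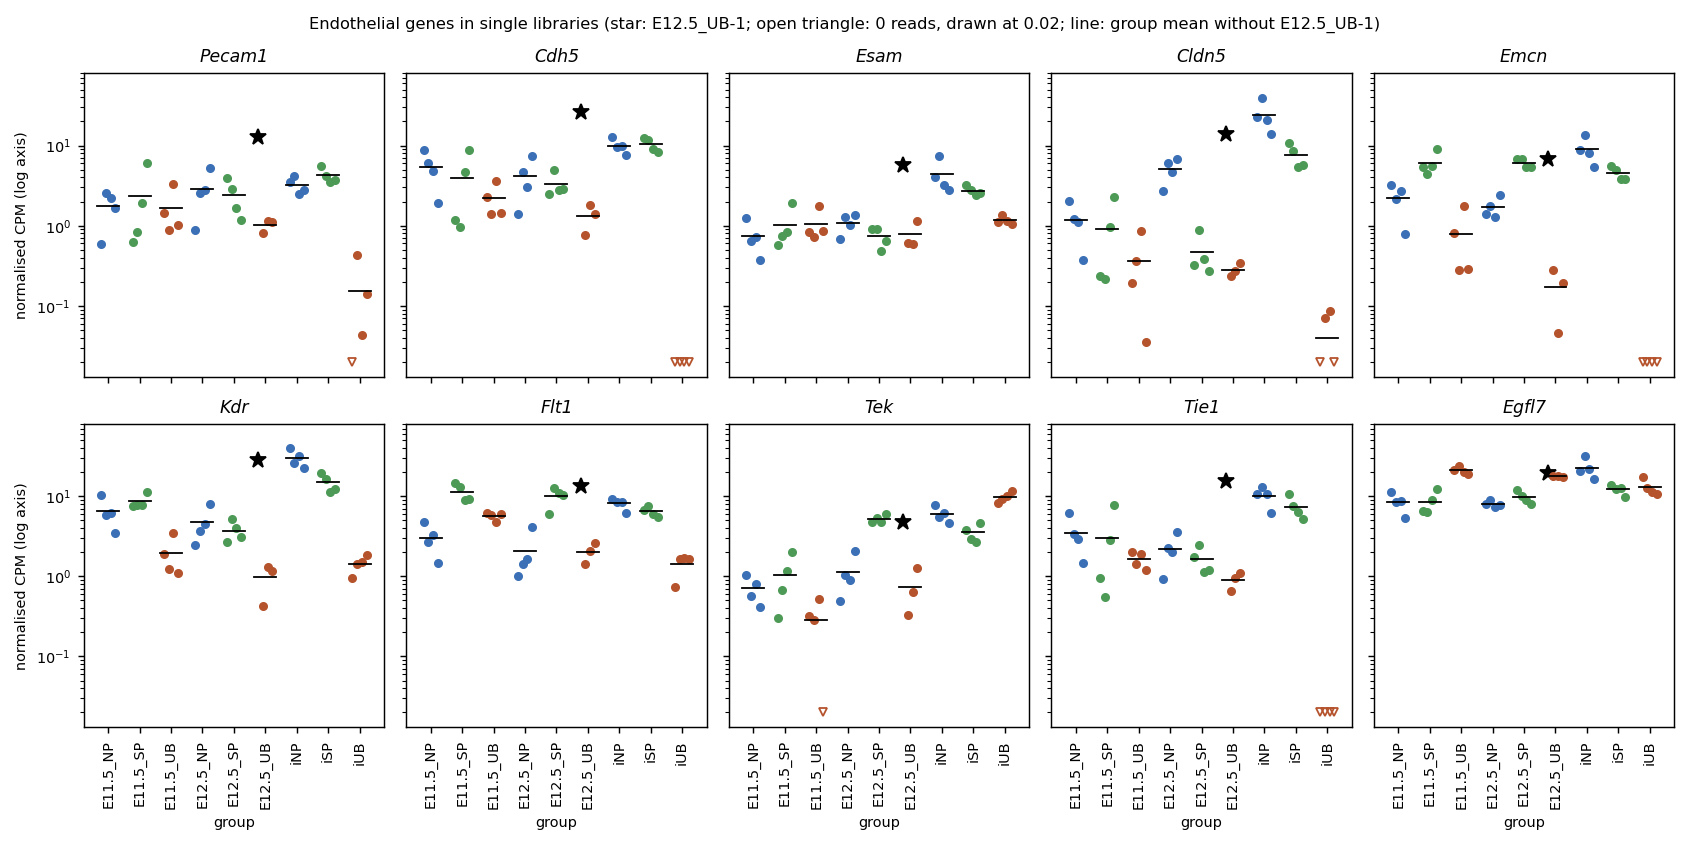
Normalised CPM (log axis) of each of the 10 genes in every library, by group; circles are libraries (blue NP, green SP, brown UB), the star is E12.5_UB-1, open triangles are libraries without a read (drawn at 0.02) and lines are group means without E12.5_UB-1. Cdh5, Tie1 and Emcn have no read in any iUB library, Tek is highest in iUB, and E12.5_UB-1 stands above the other 3 E12.5_UB libraries for every gene, though only slightly for Egfl7.

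E12.5_UB-1 was set apart from the other E12.5_UB libraries in 9 of the 10 genes, in which it was at least 2-fold above the highest of the other 3. Of the 17335 genes at 0.25 or more in that library, 1762 (10.2%) were placed this way. *Cldn5* stood at 14.0 beside 0.237, 0.274 and 0.338, and *Emcn* at 6.80 beside 0.284, 0.0457 and 0.193. The VEGF receptor *Kdr* was at 28.3 (691 reads) beside 0.426, 1.33 and 1.16, 29.2 times the mean of the other 3. *Cdh5* was at 26.1 beside 0.757, 1.83 and 1.40, *Tie1* at 15.6 beside 0.663, 0.960 and 1.11, and *Pecam1* at 12.7 beside 0.805, 1.14 and 1.11. The ratios to the mean of the other 3 were smaller for *Esam* (7.26), *Flt1* (6.54) and *Tek* (6.40). *Egfl7* was the exception at 19.7 beside 17.7, 18.0 and 17.5, a ratio of 1.11. The same library was at least 2-fold above the others in 17 of 20 further endothelial genes and in 6 of 12 endothelial transcription factor genes, among them *Erg*, *Sox17* and *Sox18*. It also stood apart in 7 of 8 nephron progenitor genes (sum 439.0, beside 53.5 to 83.6), 7 of 8 stromal progenitor genes (sum 543.1, beside 187.1 to 202.6), 6 of 8 mural genes, which mark the cells around vessels, and 3 erythroid genes (sum 89.98, beside 6.31 to 39.2), and in no macrophage gene (0 of 12). The mural sum, in contrast, was the lowest of the group at 325.9, beside 335.4 to 388.0. Its ureteric bud sum was the lowest of the group, 2170 beside 3421 to 3712. The part of these other cell types in the level of the endothelial genes was not tested. Comparisons with E12.5_UB are therefore given with and without this library for the genes at 0.25 or more in every library compared.

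**Figure D2:**
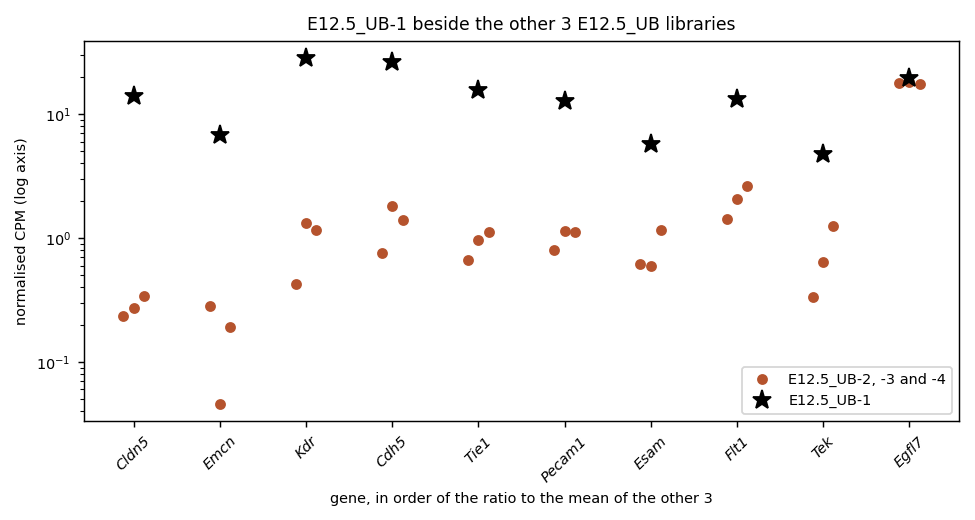
Normalised CPM (log axis) of the 10 genes in E12.5_UB-1 (star) and the other 3 E12.5_UB libraries (circles), in order of the ratio between them. The ratio to the mean of the other 3 falls from 49.3 for Cldn5 to 1.11 for Egfl7.

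To ask how far the mESC-derived nephron progenitors differ from their ex-fetu counterparts in endothelial genes, iNP was compared with E11.5_NP and with E12.5_NP. All 10 genes were higher in iNP than in E11.5_NP, and 9 of 10 were higher than in E12.5_NP, the exception being *Pecam1*. Genes were tested with limma on log2(normalised CPM + 0.25), a scale on which the change of low genes is understated, and called at a Benjamini-Hochberg adjusted p under 0.05 over all genes. Of the 17071 genes tested against E11.5_NP, 34.7% were called higher and 26.1% lower in iNP, and of the 17080 tested against E12.5_NP, 25.4% and 17.1%. The median log2 fold change of the 10 genes was 1.78 against E11.5_NP and 2.09 against E12.5_NP, where the median of all genes was 0.11 and 0.07. Both comparisons use the same iNP libraries. Markers of other cells differed too: 6 of 8 nephron progenitor genes were lower in iNP in each comparison, their sum being 513.6 to 897.0 in iNP and 1356 to 2162 in the NP groups. Of 8 ureteric bud genes, 5 were higher against E11.5_NP and 6 against E12.5_NP, with a sum of 101.3 to 106.7 in iNP and 26.4 to 96.1 in the NP groups. Their part in the endothelial differences was not tested.

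Among the VEGF receptors, *Kdr* was at 40.0, 25.6, 31.5 and 22.8 normalised CPM in the iNP libraries, at 10.5, 5.81, 6.18 and 3.49 in E11.5_NP and at 2.49, 3.73, 4.51 and 8.10 in E12.5_NP. Every iNP library was above every NP library, and the log2 fold change was 2.23 (SE 0.29, limma adjusted p = 0.000101) against E11.5_NP and 2.695 (SE 0.32, limma adjusted p = 9.51e-05) against E12.5_NP. *Flt1* was at 8.13 ± 1.37 (SD, n = 4) in iNP, 3.05 ± 1.38 in E11.5_NP and 2.05 ± 1.42 in E12.5_NP, and was higher in iNP by 1.43 (SE 0.29) and 2.02 (SE 0.35) on the log2 scale. The angiopoietin receptor *Tek* was at 7.70, 5.54, 6.15 and 4.62 in iNP and did not exceed 1.05 in E11.5_NP or 2.06 in E12.5_NP, a log2 fold change of 2.73 (SE 0.24, limma adjusted p = 7.93e-06) and 2.28 (SE 0.32). Its partner *Tie1* was at 10.1 ± 2.91 in iNP, 3.47 ± 1.94 in E11.5_NP and 2.19 ± 1.11 in E12.5_NP. The highest E11.5_NP library of *Tie1*, at 6.12, reached the lowest iNP library, at 6.10.

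Of the junction genes, *Cldn5* differed most, at 23.0, 39.0, 20.9 and 13.9 normalised CPM in iNP beside 2.03, 1.21, 1.11 and 0.376 in E11.5_NP and 2.68, 6.11, 4.69 and 6.71 in E12.5_NP. The groups did not overlap, and the log2 fold change was 4.14 (SE 0.40, limma adjusted p = 1.28e-05) and 2.18 (SE 0.34, limma adjusted p = 0.000609). *Esam* was at 4.37 ± 2.11 in iNP, 0.746 ± 0.365 in E11.5_NP and 1.09 ± 0.313 in E12.5_NP. The sialomucin gene *Emcn*, at 9.03 ± 3.48 in iNP, 2.21 ± 1.05 in E11.5_NP and 1.71 ± 0.511 in E12.5_NP, was higher in iNP by 1.97 (SE 0.38) and 2.20 (SE 0.29) on the log2 scale. *Egfl7* was at 22.8 ± 6.55 in iNP and at 8.47 ± 2.45 and 8.04 ± 0.707 in the NP groups.

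*Cdh5* and *Pecam1* showed the smallest differences of the 10 against both NP groups. *Cdh5* was at 12.8, 9.74, 9.75 and 7.58 in iNP, 8.73, 6.14, 4.86 and 1.91 in E11.5_NP and 1.39, 4.66, 3.06 and 7.41 in E12.5_NP, a log2 fold change of 1.002 (SE 0.37, limma adjusted p = 0.0389) and 1.41 (SE 0.41, limma adjusted p = 0.0177). *Pecam1*, whose protein was used to gate cells out, was at 3.48, 4.23, 2.49 and 2.75 in iNP, 0.585, 2.59, 2.22 and 1.64 in E11.5_NP and 0.893, 2.53, 2.76 and 5.25 in E12.5_NP. The iNP libraries of *Pecam1* overlapped both NP groups, with a log2 fold change of 0.91 (SE 0.35, limma adjusted p = 0.0461) and 0.35 (SE 0.41, limma adjusted p = 0.518). These calls were fragile. That of *Pecam1* against E11.5_NP was lost in 6 of the 8 fits that left out 1 library, and moved to 0.44 with quantile normalisation (limma adjusted p = 0.343) and to 0.53 without the first E11.5_NP library (limma adjusted p = 0.0702). That of *Cdh5* against E11.5_NP was lost with quantile normalisation (0.55, limma adjusted p = 0.218), with edgeR on the recovered reads (0.83, edgeR adjusted p = 0.0694), with all 36 libraries in 1 fit (limma adjusted p = 0.188) and in 4 of the 8 fits that left out 1 library, falling to 0.60 without the fourth E11.5_NP library (limma adjusted p = 0.0552). That of *Cdh5* against E12.5_NP was lost with quantile normalisation (1.05, limma adjusted p = 0.0643), with all 36 libraries in 1 fit (limma adjusted p = 0.0681) and without the first iNP library (limma adjusted p = 0.0535).

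iSP differed from ex-fetu stromal progenitors in a smaller set. *Esam*, *Cdh5*, *Tie1* and *Kdr* were called higher in iSP against both E11.5_SP and E12.5_SP, while *Tek* changed direction between the 2 comparisons. Of the 9 genes at 0.25 or more in every library of iSP and E11.5_SP, 5 were higher and 1 (*Flt1*) was lower, beside 32.7% and 30.3% of all 17050 genes tested. This leaves out *Cldn5*, which was under 0.25 in the first and second E11.5_SP libraries and passed the minimum through iSP. It was called higher too, but nothing is read from that call. Against E12.5_SP, 6 of the 10 genes were higher and 1 (*Tek*) was lower, beside 30.9% and 26.9% of all 16948. On the log2 scale the median was 1.23 over the 9 genes against E11.5_SP and 1.24 over the 10 against E12.5_SP. Over all genes it was 0.04 in both comparisons, which share the iSP libraries. Markers of other cells differed as well: of 8 nephron progenitor genes, 3 were higher and 3 lower against E11.5_SP and 6 higher and 1 lower against E12.5_SP, and of 8 ureteric bud genes, none was higher and 5 lower against E11.5_SP and 4 higher and 3 lower against E12.5_SP. The erythroid sum was at most 0.394 in iSP, beside at least 82.7 in either SP group. Their part in the endothelial differences was not tested.

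*Cldn5* was at 10.7, 8.52, 5.39 and 5.78 in iSP, 0.234, 0.219, 0.953 and 2.26 in E11.5_SP and 0.325, 0.887, 0.383 and 0.275 in E12.5_SP. Every iSP value was above every SP value. Against E12.5_SP the log2 fold change was 3.47 (SE 0.30, limma adjusted p = 8.87e-06). None is given against E11.5_SP, where *Cldn5* passed the minimum through iSP. *Kdr* was at 14.9 ± 3.84 in iSP, 8.599 ± 1.85 in E11.5_SP and 3.73 ± 1.09 in E12.5_SP, a log2 fold change of 0.77 (SE 0.20, limma adjusted p = 0.00755) and 1.94 (SE 0.24). The lowest iSP value of *Kdr*, 11.3, was just under the highest of E11.5_SP, 11.4. The other VEGF receptor did not follow it: *Flt1* was at 6.76, 7.63, 6.06 and 5.47 in iSP, below all of 14.6, 12.9, 8.94 and 9.26 in E11.5_SP, a log2 fold change of -0.78 (SE 0.19, limma adjusted p = 0.00456), and against E12.5_SP (10.04 ± 2.88) the difference of -0.57 (SE 0.23) was not called (limma adjusted p = 0.0513). That difference was called with edgeR on the recovered reads (-0.66, edgeR adjusted p = 0.0259), quantile normalisation (-0.69, limma adjusted p = 0.0179), a pseudocount of 1 with a minimum of 1 (-0.53, limma adjusted p = 0.0471) and without the first E12.5_SP library (-0.79, limma adjusted p = 0.000576). The calls of *Cdh5* and *Tie1* against E11.5_SP were lost with edgeR on the recovered reads (edgeR adjusted p = 0.0668 and 0.122). That of *Tie1* was also lost in 5 of the 8 fits that left out 1 library (limma adjusted p up to 0.0815), and that of *Cdh5* in 1, without the first E11.5_SP library (limma adjusted p = 0.0507). With all 36 libraries in 1 fit, neither *Kdr* nor *Flt1* was called against E11.5_SP (limma adjusted p = 0.279 and 0.107).

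*Tek* was at 3.82, 2.90, 2.696 and 4.70 in iSP. E11.5_SP lay below, at 0.300, 0.681, 1.15 and 2.03, and E12.5_SP above, at 4.82, 5.28, 4.73 and 5.92. The log2 fold change was 1.71 (SE 0.39, limma adjusted p = 0.00347) and -0.55 (SE 0.19, limma adjusted p = 0.0321), the second lost with upper-quartile scaling (-0.46, limma adjusted p = 0.0631), with all 36 libraries in 1 fit (limma adjusted p = 0.293) and in 4 of the 8 fits that left out 1 library. *Pecam1* was at 4.26 ± 0.905 in iSP. Against E11.5_SP its difference of 1.23 (SE 0.53) was not called (limma adjusted p = 0.0634), but was with upper-quartile scaling (1.34, limma adjusted p = 0.0469) and without the fourth E11.5_SP library (1.81, limma adjusted p = 0.000377). It was called against E12.5_SP (0.85, SE 0.32, limma adjusted p = 0.0431), a call lost with 4 of the other settings, edgeR on the recovered reads among them (edgeR adjusted p = 0.0800), and in 6 of the 8 fits that left out 1 library. *Emcn* (4.56 ± 0.883 in iSP) and *Egfl7* (12.2 ± 1.72) were not called by limma in either comparison with all libraries. *Egfl7* was called higher than in E11.5_SP with upper-quartile scaling (0.65, limma adjusted p = 0.0261), with all 36 libraries in 1 fit (0.53, limma adjusted p = 0.0249) and without the fourth E11.5_SP or the fourth iSP library (limma adjusted p = 0.00326 and 0.0447), and higher than in E12.5_SP without the first E12.5_SP library (0.43, limma adjusted p = 0.0201). *Emcn* was called lower than in E12.5_SP with quantile normalisation (-0.52, limma adjusted p = 0.0303), with the replicate number as a block (limma adjusted p = 0.0495) and without the first iSP library (limma adjusted p = 0.0361).

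The comparisons of iNP and iSP were then set against each other by a test of the difference between their log2 fold changes, added after the values had been seen. With the E11.5 groups, the difference was above 0 for *Flt1* (2.21, SE 0.37, limma adjusted p = 0.000229), *Emcn* (2.34, SE 0.48) and *Kdr* (1.47, SE 0.38), that is for 3 of 10 genes, beside 16.5% of all genes, with none of the 10 called below 0, beside 9.55%. With the E12.5 groups it was above 0 for *Tek* (2.83, SE 0.39, limma adjusted p = 4.3e-05), *Egfl7* (1.11, SE 0.26), *Flt1* (2.59, SE 0.44) and *Emcn* (2.62, SE 0.35), 4 of 10 beside 13.2% of all genes, and none of the 10 was called below 0, beside 7.61%. Of the 5 genes that passed the test at neither stage, *Cdh5*, *Tie1* and *Pecam1* were between -0.82 and 0.13 and *Esam* was at 0.84 and 0.10. *Cldn5* had opposite signs, at 1.09 with the E11.5 groups and -1.28 with the E12.5 groups (limma adjusted p = 0.282 and 0.0735).

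To ask the same of the ureteric bud, iUB was compared with E11.5_UB and E12.5_UB, comparisons that share the iUB libraries. *Cdh5*, *Tie1* and *Emcn* had no read in any of the 4 iUB libraries, *Cldn5* had reads in 2 of them (0.0710 and 0.0859 normalised CPM) and *Pecam1* in 3 (0.426, 0.0429 and 0.142). *Tek* was the opposite: it was at 8.24, 9.16, 10.2 and 11.6 in iUB, above every other library of the series, against 0.323, 0.281, 0.529 and 0 in E11.5_UB. The minimum level for testing, 0.25 in at least 4 libraries, bears on these counts, since a gene near 0 in iUB passed it through the UB libraries alone and could then hardly be anything but lower. Of the 4 genes at or above 0.25 in every library of iUB and E11.5_UB, *Egfl7* and *Flt1* were lower, *Esam* and *Kdr* were not called and none was higher, beside 26.3% lower and 28.8% higher of all 16990 genes tested. Of the 5 at that level in every library of iUB and E12.5_UB, *Tek* was higher and *Egfl7* lower, beside 20.7% and 19.6% of all 16921. The median of these genes was -0.50 against E11.5_UB and -0.50 against E12.5_UB, beside 0.01 and -0.02 over all genes, and without E12.5_UB-1 the second became 0.49. *Pecam1*, *Cdh5* and *Tie1* in both comparisons and *Emcn* in the first were called lower as well, but reached 0.25 in at most 1 iUB library, so that nothing is read from those calls. Nor is anything read from the call of *Tek* as higher than in E11.5_UB, where 3 of the 4 libraries reached 0.25 and it passed through iUB. *Cldn5* in both comparisons and *Emcn* in the second were not tested. Markers of blood cells differed as well: the macrophage sum was at 0.958 to 1.503 in iUB, 94.4 to 162.2 in E11.5_UB and 77.9 to 135.0 in E12.5_UB, and the erythroid sum at 0.371 to 0.902, 6.31 to 57.1 and 6.31 to 89.98. Their part in the endothelial differences was not tested.

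*Tek* was higher in iUB than in E12.5_UB by 2.83 (SE 0.56, limma adjusted p = 0.00368) on the log2 scale, and by 3.44 (SE 0.30, limma adjusted p = 3.39e-05) without E12.5_UB-1. *Cdh5* was at 2.29, 1.41, 3.66 and 1.42 in E11.5_UB, at least 15.6-fold above iUB, taking 3 reads in each iUB library as the limit. *Tie1*, at 1.63 ± 0.390 in E11.5_UB, was at least 11.6-fold and *Emcn*, at 0.778 ± 0.686, at least 5.51-fold above iUB. *Flt1* was at 6.14, 5.83, 4.72 and 6.01 in E11.5_UB and 0.743, 1.67, 1.67 and 1.63 in iUB, which did not overlap (log2 fold change -1.86, SE 0.23, limma adjusted p = 7.81e-05). The genes that were not called against E11.5_UB, *Esam* (1.17 ± 0.125 in iUB, 1.05 ± 0.488 in E11.5_UB) and *Kdr* (1.43 ± 0.361 and 1.93 ± 1.09), differed by 0.19 (SE 0.25) and -0.28 (SE 0.32) on the log2 scale.

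*Egfl7* was lower in iUB, at 17.3, 12.6, 11.3 and 10.7, than in E11.5_UB, at 21.4, 24.0, 20.3 and 19.1, a log2 fold change of -0.72 (SE 0.15, limma adjusted p = 0.00235). Against E12.5_UB (18.2 ± 1.01) it was lower by -0.50 (SE 0.15, limma adjusted p = 0.0282), a call lost with upper-quartile scaling (-0.48, limma adjusted p = 0.0589) and in 6 of the 8 fits that left out 1 library. Without E12.5_UB-1 and with the minimum level required in 3 libraries instead of 4, *Tek* was again called higher and *Egfl7* lower than in E12.5_UB. *Pecam1*, *Cdh5* and *Tie1* were again called lower too, but nothing is read from those calls. The log2 fold change of *Egfl7* was then -0.47. *Kdr*, *Esam* and *Flt1* were called in neither fit. The first of these turned from -0.63 with all libraries to 0.53, the second from -0.15 to 0.49, and *Flt1* went from -1.11 to -0.46. With the minimum required in 4 libraries and 1 UB library left out, the genes without a read in iUB could not be tested, and 2 to 3 genes were called against E12.5_UB and 4 against E11.5_UB. *Tek* stayed called against E12.5_UB in each of these fits.

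Set against the mean of iNP and iSP, 3 of the 5 genes at 0.25 or more in every library (*Esam*, *Flt1* and *Kdr*) were lower and 1 (*Tek*) higher in iUB, beside 31.0% and 27.9% of all 17932 genes tested. The other 5 were called lower too, but passed the minimum through iNP and iSP. *Tek* was higher by 1.06 (SE 0.17, limma adjusted p = 0.000106). *Kdr* was lower by -3.66 (SE 0.19), *Cldn5* had at most 2 reads in each iUB library, and the genes without a read in iUB were at least 72.1-fold (*Cdh5*), 62.3-fold (*Tie1*) and 48.2-fold (*Emcn*) higher in iNP and iSP. *Egfl7* (-0.35, SE 0.17) was not called (limma adjusted p = 0.0983). The mural sum was at 240.4 to 302.6 in iUB, 263.2 to 489.8 in iNP and 423.6 to 494.4 in iSP, and its part in these differences was not tested.

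**Figure D3:**
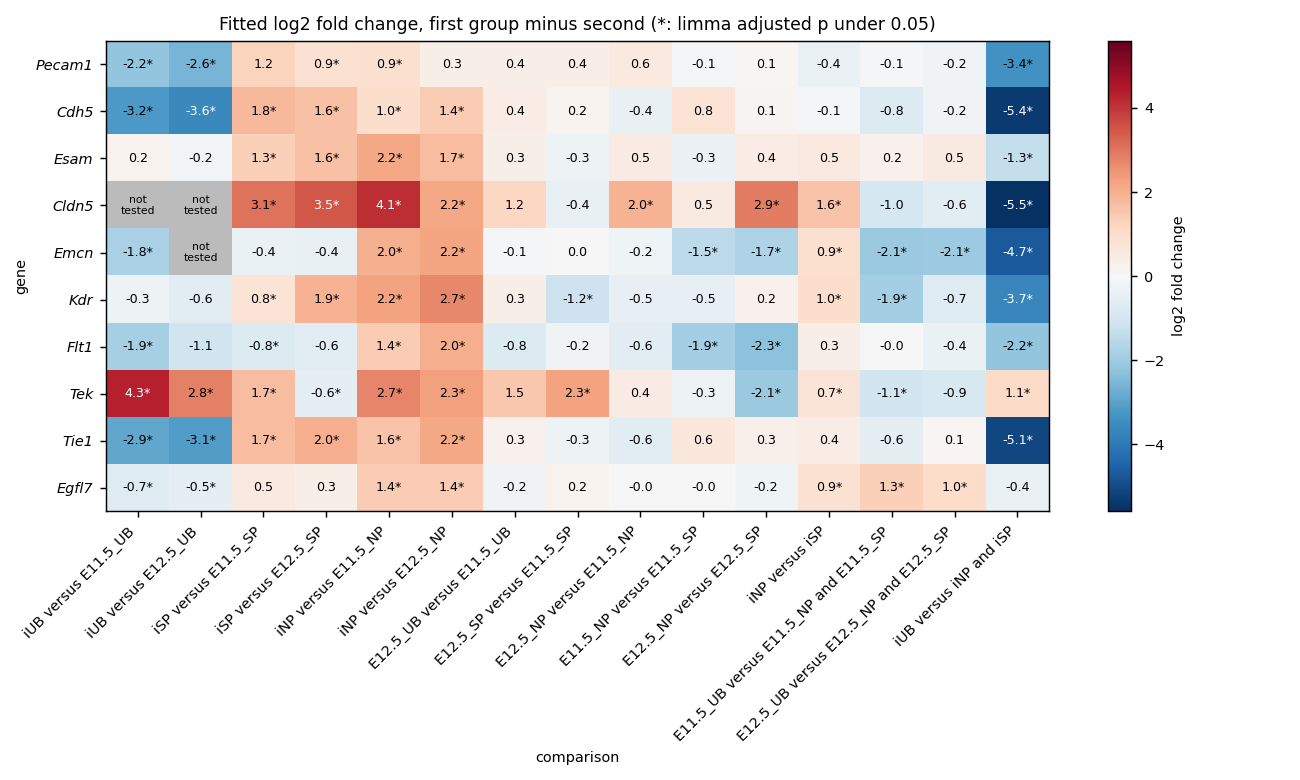
Fitted log2 fold change (first group minus second, colour and number) of the 10 genes in the 15 comparisons; stars mark a limma adjusted p under 0.05 and grey cells genes under the minimum level. The iNP columns are higher for every gene called. The iUB columns are lower for every gene called other than Tek, but not all of these calls can be read. Pecam1, Cdh5, Tie1, Emcn and Cldn5 passed the minimum level there through the other groups, and Tek against E11.5_UB through iUB. Of the remaining genes, Egfl7 and Flt1 are lower against E11.5_UB and Egfl7 against E12.5_UB. Esam, Flt1 and Kdr are lower against iNP and iSP.

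iNP and iSP differed in 5 of the 10 genes, all higher in iNP: *Tek*, *Egfl7*, *Cldn5*, *Emcn* and *Kdr*. None was lower. Over all 17079 genes 16.2% were higher and 12.2% lower in iNP. *Cldn5* was at 24.2 ± 10.6 in iNP and 7.59 ± 2.48 in iSP (log2 fold change 1.60, SE 0.31, limma adjusted p = 0.00335), and *Kdr* at 30.0 ± 7.59 and 14.9 ± 3.84 (0.99, SE 0.21, limma adjusted p = 0.00607). *Cdh5*, at 9.97 ± 2.15 and 10.4 ± 2.05, differed by -0.06 (SE 0.18), and *Pecam1* was at 3.24 ± 0.783 and 4.26 ± 0.905 (-0.38, SE 0.20, limma adjusted p = 0.195; -0.51 without the second iNP library, limma adjusted p = 0.0413). With all 36 libraries in 1 fit, which sets a common spread over groups, 1 of the 5 calls held (*Egfl7*), and *Tek* was not called in the fit blocked on replicate number (limma adjusted p = 0.0567). Leaving out 1 library, the call of *Emcn* was lost in 5 of 8 fits and that of *Tek* in 4. Of 8 ureteric bud genes, 6 were higher and 2 lower in iNP, and of 8 mural genes, 6 were higher and none lower, and their part in these differences was not tested.

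Between the ex-fetu mesenchymal types, *Flt1* and *Emcn* were lower in NP at both stages. At E11.5, *Flt1* was at 4.79, 2.69, 3.24 and 1.47 in NP and 14.6, 12.9, 8.94 and 9.26 in SP (log2 fold change -1.90, SE 0.31, limma adjusted p = 0.000867), and *Emcn* at 3.23, 2.15, 2.69 and 0.786 in NP and 5.34, 4.43, 5.64 and 9.02 in SP (-1.45, SE 0.37, limma adjusted p = 0.0106). Neither pair of groups overlapped. These 2 of 10 were lower, close to the 20.7% of all 16756 genes, and none was higher, beside 18.3%. The erythroid sum was at 14.1 to 75.5 in E11.5_NP and 82.7 to 1582 in E11.5_SP, and the mural sum at 115.6 to 200.7 and 473.6 to 654.3, so both moved the same way, and 6 of 8 ureteric bud genes were lower and none higher in NP. The difference of *Kdr* was called without the first E11.5_NP library (-0.73, limma adjusted p = 0.0389). At E12.5, *Flt1* (-2.28, SE 0.39) and *Emcn* (-1.73, SE 0.22) were again lower in NP and were joined by *Tek*, at 0.492, 1.05, 0.906 and 2.06 in NP and 4.82, 5.28, 4.73 and 5.92 in SP (-2.10, SE 0.31, limma adjusted p = 0.000641). *Cldn5* was the reverse, at 2.68, 6.11, 4.69 and 6.71 in NP and 0.325, 0.887, 0.383 and 0.275 in SP (2.88, SE 0.34, limma adjusted p = 0.000133). Thus 3 of 10 were lower and 1 higher, beside 16.5% and 15.2% of all 16785 genes tested. In this comparison same-numbered libraries deviated together from their group means (r = 0.435 to 0.642 over genes, each highest for its own number). With the number as a block the same 4 genes were called, while the count over all genes rose from 2554 to 4527 higher and from 2772 to 4334 lower. The erythroid sum again moved the same way as *Flt1*, *Emcn* and *Tek*, at 3.87 to 73.5 in E12.5_NP and 287.3 to 2899 in E12.5_SP, as did the mural sum, at 117.9 to 177.1 and 360.1 to 604.6. Their part in the differences at either stage was not tested.

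Between E11.5 and E12.5 few of the genes differed. In SP, *Tek* was higher at E12.5 by 2.26 (SE 0.38, limma adjusted p = 0.00788) and *Kdr* was lower, at 7.57, 7.71, 7.75 and 11.4 at E11.5 and 2.71, 5.16, 3.97 and 3.07 at E12.5 (log2 fold change -1.17, SE 0.24, limma adjusted p = 0.0165). These were 1 of 10 in each direction, beside 3.19% higher and 4.56% lower of all 16822 genes. The *Kdr* call was lost with all 36 libraries in 1 fit (limma adjusted p = 0.190) and without the fourth E12.5_SP library (0.0650). Ureteric bud and nephron progenitor genes moved as well: of 8 each, 6 of the former were lower and none higher at E12.5, with sums of 139.4 to 320.2 at E11.5 and 86.6 to 118.6 at E12.5, and 4 of the latter were lower and 1 higher. Their part was not tested. In NP, *Cldn5* was higher at E12.5 by 1.96 (SE 0.40, limma adjusted p = 0.0251) with no overlap between the groups, and none of the 10 was lower, beside 2.59% higher and 3.21% lower of all 16434 genes. Of 8 ureteric bud genes, 2 were higher there and none lower. That call was lost in 1 of the other fits and in 4 of the 8 that left out a library. The difference between the stage effects of SP and NP did not pass for any of the 10 genes with limma, the single tool run for it (0.857% of all genes were above 0 and 1.59% below). That fit took no account of the replicate number, by which E12.5_NP and E12.5_SP libraries deviated together. At an unadjusted p under 0.05, 2 of the 10 passed, *Tek* being at 1.81 (SE 0.55, limma adjusted p = 0.102) and *Cldn5* at -2.37 (SE 0.71, limma adjusted p = 0.101).

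Between E12.5_UB and E11.5_UB none of the 10 genes was called, beside 11.1% of all 16867 genes higher and 10% lower. At an unadjusted p under 0.05, 1 of the 10 (*Tek*, 1.51, SE 0.62) passed with limma, and edgeR on the recovered reads called none. Without E12.5_UB-1, *Flt1* was lower at E12.5 by -1.41 (limma adjusted p = 0.000144) and *Tie1* by -0.69 (limma adjusted p = 0.0469), where with it the values were -0.76 (SE 0.54) and 0.25 (SE 0.77). The other genes at 0.25 or more in every library were called in neither fit. Among them, *Kdr* turned from 0.35 to -0.81, *Cdh5* from 0.43 to -0.60, *Pecam1* from 0.39 to -0.45 and *Esam* from 0.34 to -0.30 when that library was left out, and *Egfl7* went from -0.21 to -0.25. Over all genes 20.7% were higher and 16.6% lower without it. The 3 other E12.5_UB libraries were at 1.42, 2.06 and 2.61 for *Flt1*, all below the lowest E11.5_UB value of 4.72. Since the labels disagree on which UB samples are E11.5, the direction of these differences rests on the titles.

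Set against the mean of NP and SP of the same stage, UB was higher in *Egfl7* and in no other of the 10 genes. At E11.5, *Egfl7* was at 19.1 to 24.0 in UB and 5.37 to 12.5 in the 8 mesenchymal libraries (log2 fold change 1.33, SE 0.20, limma adjusted p = 5.74e-05), while *Emcn* (-2.08, SE 0.38) and *Kdr* (-1.88, SE 0.29) were lower, that is 1 higher and 2 lower of the 8 genes at 0.25 or more in every library, beside 24.8% and 26.7% of all 17812 genes. *Tek*, with no read in 1 E11.5_UB library, and *Cldn5* are left out of this count. At E12.5, *Egfl7* was at 17.5 to 19.7 in UB and 7.27 to 11.8 in NP and SP (1.03, SE 0.13, limma adjusted p = 2.66e-05), 1 of the 8 genes at 0.25 or more in every library, with none of the 8 lower, beside 19.5% higher and 17.4% lower of all 17846 genes. Without E12.5_UB-1, *Kdr* (-1.88, from -0.72 with it), *Tek* (-1.51, from -0.90), *Cdh5* (-1.25, from -0.22) and *Flt1* (-1.02, from -0.37) were lower, and *Egfl7* stayed the one called higher, beside 19.0% lower and 18.4% higher of all genes in that fit. *Pecam1* (-0.19 with it, -1.03 without), *Tie1* (0.13, then -0.82) and *Esam* (0.48, then -0.16) were called in neither fit, the last pair changing sign. *Emcn* and *Cldn5* fell under 0.25 in E12.5_UB libraries and passed the minimum through NP and SP, so they are left out of these counts. The macrophage sum moved with *Egfl7*, being at 94.4 to 162.2 in E11.5_UB, 77.9 to 135.0 in E12.5_UB and at most 3.34 in NP and SP. Its part in the level of *Egfl7* was not tested. The *Egfl7* gene overlaps exons of *Gm20532* on its own strand and of *Agpat2* on the opposite one, and the strand setting of the counting is not stated, so part of its reads may be uncertain.

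In some groups, though not in all, most of the genes were highest in the same library. In E11.5_NP the first library was the highest for 9 of the 10 genes and the fourth the lowest for 9. The fourth E11.5_SP and E12.5_NP libraries were each the highest of their group for 9 of 10 genes, and the first iSP library for 8 of 10. In E12.5_SP no library led, the highest value lying in the first for 4 genes, the second for 5 and the fourth for 1, and in iUB none led for more than 2. In E11.5_NP the gene out of line was *Pecam1*, for which the first library was the lowest of its group, with 15 reads beside 224 of *Cdh5*.

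The ratio of *Pecam1* to *Cdh5* was examined for this reason, after the values had been seen, since CD31 was the protein gated against. It was 0.0670, 0.421, 0.456 and 0.857 in E11.5_NP, 0.542 to 0.904 in E12.5_NP and 0.255 to 0.434 in iNP. In SP it was 0.410 to 0.850 at E11.5 and 0.413 to 1.59 at E12.5, and in iSP 0.360 to 0.449. The ratio was lower in iNP than in E12.5_NP by 1.09 on the log2 scale without overlap (exact two-sided permutation test, p = 0.0286, the smallest that 4 against 4 allow), and none of the other 3 differences between an mESC group and its ex-fetu counterpart passed (exact permutation p = 0.0857 to 1). The ratio of *Pecam1* to *Tie1* was lower without overlap in iNP than in E12.5_NP by 1.91 and in iSP than in E12.5_SP by 1.26 on the log2 scale (exact two-sided permutation test, p = 0.0286 for each). Over the 10 tests of *Pecam1* ratios to *Cdh5* or *Tie1*, none passed after Benjamini-Hochberg adjustment (smallest adjusted exact permutation p = 0.0952). In the UB libraries, for which no CD31 gate is described, it was 0.620 to 0.918 at E11.5, 0.486 in E12.5_UB-1 and 0.625 to 1.06 in the other 3 at E12.5.

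**Figure D4:**
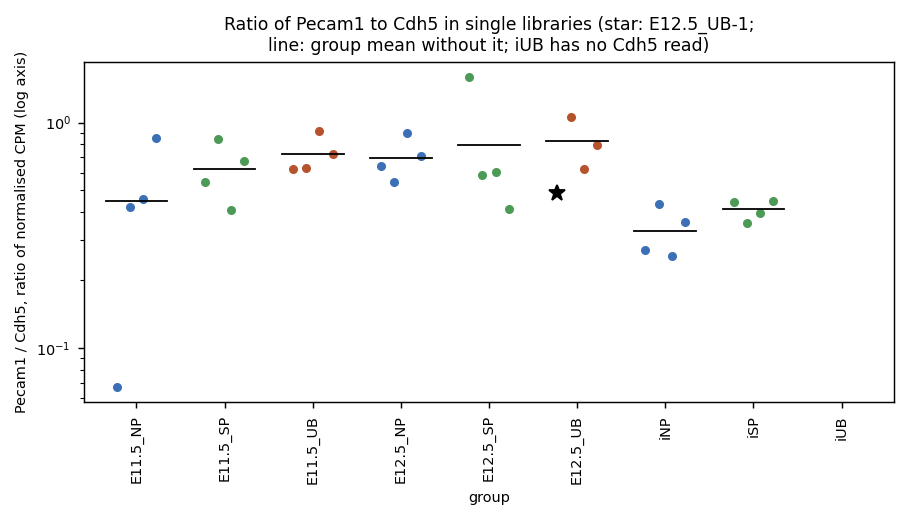
Ratio of the normalised CPM of Pecam1 to that of Cdh5 (log axis) in every library that has a Cdh5 read, by group (blue NP, green SP, brown UB); the star is E12.5_UB-1 and lines are group means without it. The iNP and iSP libraries lie between 0.255 and 0.449, and the first E11.5_NP library is lowest at 0.0670.

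The other endothelial genes were taken as a list of 20 that does not overlap the 10. As above, counts over a list include genes that passed the minimum through one group alone. The list gave 18 higher and 0 lower in iNP against E11.5_NP and 14 higher and 1 lower (*Ramp2*, a subunit of the adrenomedullin receptor) against E12.5_NP, beside 34.7% and 26.1% and 25.4% and 17.1% of all genes. In iSP, 9 were higher and 4 lower against E11.5_SP, beside 32.7% and 30.3% of all genes, and 11 higher and 3 lower against E12.5_SP, beside 30.9% and 26.9%. For iUB the sum of the list is given in place of a count. It was at 13.3 to 17.3 in iUB, 66.7 to 76.9 in E11.5_UB, 42.5 to 63.6 in E12.5_UB without E12.5_UB-1 (176.5 in that library), 107.1 to 164.7 in iNP and 74.7 to 97.3 in iSP. The fenestral diaphragm gene *Plvap* was at 18.8 in iNP, 8.99 in E11.5_NP and 6.47 in E12.5_NP (means of 4), and the scavenger receptor gene *Stab1* at 19.3, 5.19 and 2.44. *Stab1* is also made by macrophages and stood at 41.2 in E11.5_UB.

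Among 12 transcription factor genes of endothelium, 8 were higher and 1 lower in iNP against E11.5_NP, beside 34.7% and 26.1% of all genes, and 10 higher and none lower against E12.5_NP, beside 25.4% and 17.1%. In iSP 3 were higher and 4 lower against E11.5_SP, close to the 32.7% and 30.3% of all genes, and 5 higher and 3 lower of 11 tested against E12.5_SP, beside 30.9% and 26.9%. For iUB the sum of the 12 genes is given in place of a count, as for the list above. It was at 131.2 to 153.5 in iUB, 327.6 to 389.6 in E11.5_UB, 200.2 to 273.9 in E12.5_UB, 202.8 to 261.2 in iNP and 332.2 to 366.5 in iSP. The members of the list with the highest values are also used by other cells. *Ets1* was at 217.9, *Gata2* at 129.7, *Elk3* at 126.1 and *Fli1* at 48.6 in E11.5_SP (means of 4), all higher than the corresponding 107.4, 24.2, 72.6 and 3.99 in E11.5_NP. *Sox7*, whose product is one of the SoxF factors of vessels, was at 5.48 in iUB, 2.06 in E11.5_UB and 0.921 in E12.5_UB (0.218 without E12.5_UB-1), and was called higher in iUB than in E11.5_UB. *Sox17*, at 0.613 in iUB and 0.219 in E11.5_UB, had no read in at least 1 E11.5_UB library, so nothing is read from its call as higher. The 7 called lower there were *Elk3*, *Gata2*, *Fli1*, *Hhex*, *Tal1*, *Ets1* and *Lmo2*.

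The ligands and partners of these receptors were followed as a list of 11 genes of the VEGF and angiopoietin pathway. *Vegfa*, the main ligand of *Kdr* and *Flt1*, was at 412.0 in iSP and 292.6 in iNP, beside 240.8 in E11.5_SP and 179.3 in E11.5_NP, and was higher in iSP than in E11.5_SP (log2 fold change 0.77, SE 0.09) and in iNP than in E11.5_NP (0.70, SE 0.11). Against E12.5_NP its difference of 0.37 was not called (limma adjusted p = 0.122). Of the 10 pathway genes tested, 8 were higher and 2 lower in iNP against E11.5_NP (34.7% and 26.1% of all genes), and 6 higher and 2 lower against E12.5_NP (25.4% and 17.1%). In iSP 4 of 11 were higher and 5 lower against E11.5_SP (32.7% and 30.3%), and 5 of 10 higher and 4 lower against E12.5_SP (30.9% and 26.9%). In iUB 5 of 10 were higher (*Pgf*, *Vegfb*, *Nrp1*, *Angpt2* and *Vegfc*) and 1 lower (*Angpt1*) against E11.5_UB (28.8% and 26.3%), and 2 higher and 2 lower against E12.5_UB (20.7% and 19.6%), or 5 higher and 2 lower without E12.5_UB-1 (24.2% and 23.3%). The angiopoietin genes moved in opposite directions in iUB, the group with the highest level of their receptor gene *Tek*. *Angpt2*, usually described as a context-dependent antagonist of that receptor, was at 38.1 in iUB and 4.06 in E11.5_UB (3.17, SE 0.15, limma adjusted p = 1.43e-07), while the agonist gene *Angpt1* was at 8.75 and 30.9 (-1.80, SE 0.14, limma adjusted p = 2.83e-06).

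Genes of other cells of the vessel and its blood were tested in the same comparisons. No macrophage gene was called in iNP, where 1 or 2 of the 12 reached the minimum level for testing, and their sum was at 0.958 to 1.503 in iUB. The erythroid sum was at most 0.410 in iNP, beside 14.1 to 75.5 in E11.5_NP and 3.87 to 73.5 in E12.5_NP. Of 8 mural genes, 6 were higher and 1 lower in iNP against E11.5_NP (34.7% and 26.1% of all genes), *Rgs5* being at 109.2 and 3.65 and *Tagln* at 2.43 and 27.8, and 5 were higher and 1 lower against E12.5_NP (25.4% and 17.1%). In iNP against iSP 6 were higher and none lower (16.2% and 12.2%). iSP went the other way, with 1 higher and 4 lower against E11.5_SP (32.7% and 30.3%) and 2 higher and 6 lower against E12.5_SP (30.9% and 26.9%). The part of mural cells in the level of the endothelial genes was not tested. The sum of 6 megakaryocyte genes was at 1.61 to 2.29 in iNP, 0.341 to 1.75 in E11.5_NP and 0.172 to 1.42 in E12.5_NP. Their part was not tested either.

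**Figure D5:**
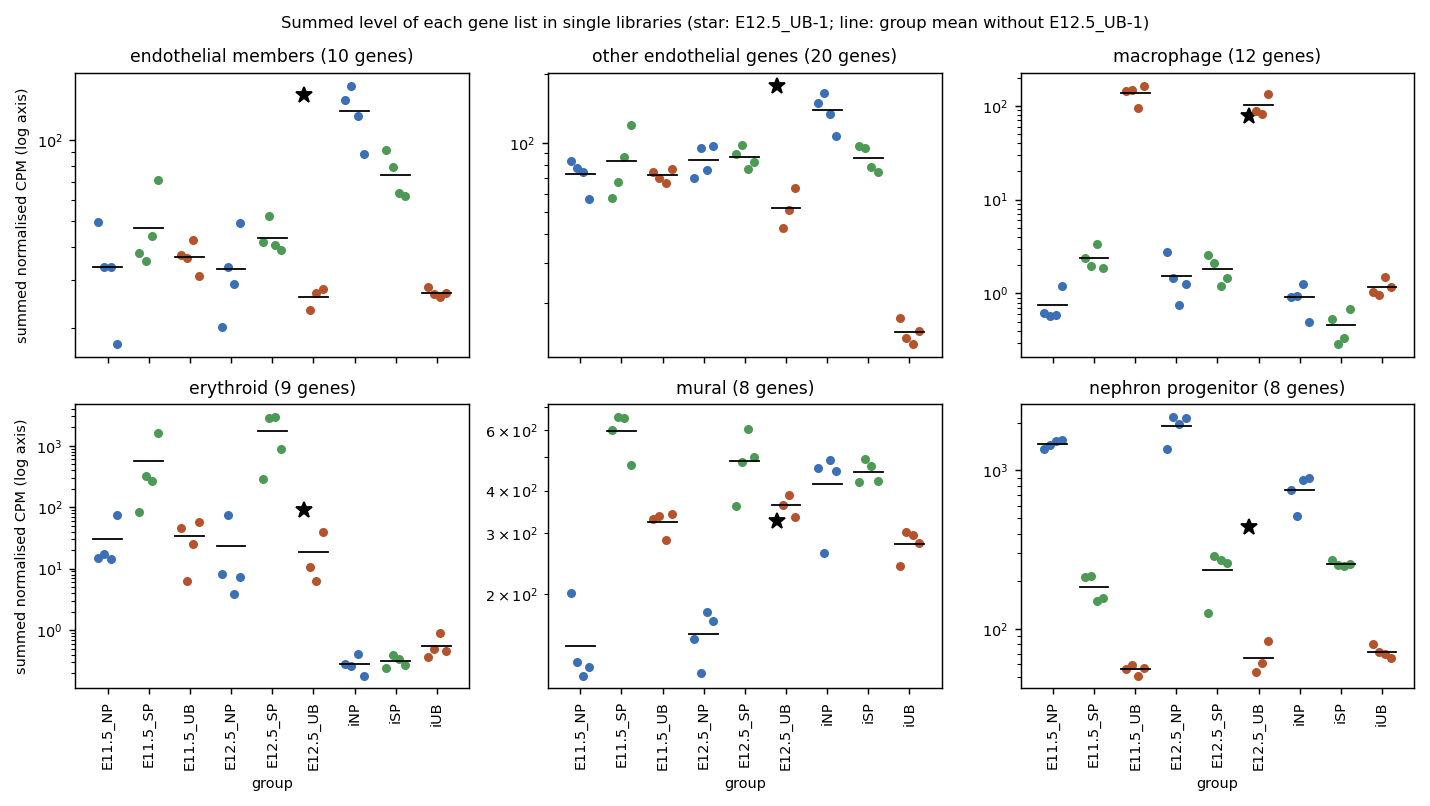
Summed normalised CPM (log axis) of the 10 endothelial genes and of 5 other lists in every library, by group (blue NP, green SP, brown UB); the star is E12.5_UB-1 and lines are group means without it. The mean sum of the 10 genes is highest in iNP, with E12.5_UB-1 inside the iNP range, while the macrophage sums are highest in ex-fetu UB and the erythroid sums in ex-fetu SP.

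Across the 35 libraries without E12.5_UB-1, the mean scaled log2 level of the 10 genes was compared with 19819 other genes, as a description, since libraries of a group and of a cell source share much of their expression. The 6 genes outside the 10 whose values were most like it, of which *Gimap6* is the single one not in the lists above, were *Sox18* (Pearson r = 0.970), *Robo4* (0.933), *Gimap6* (0.930), *Mmrn2* (0.915), *Ecscr* (0.910) and *Myct1* (0.906). *Sox18*, a SoxF transcription factor gene, was at 4.68 ± 1.75 in iNP, 3.29 ± 0.768 in iSP and 0.0363 ± 0.0303 in iUB. Among the 10, *Tie1* was most like the mean of the other 9 (r = 0.889), followed by *Kdr* (0.870), *Cldn5* (0.839) and *Cdh5* (0.836). *Flt1* was less like them (0.538), and *Tek* (0.184) and *Egfl7* (0.155) least. With E12.5_UB-1 included, r of *Sox18* was 0.973 and 5 of the 6 genes were again among the first 6, *Mmrn1* taking the place of *Mmrn2*.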

How the data were processed

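RNA of 36 pools of sorted mouse cells was sequenced from a stranded mRNA library kit, 4 pools in each of 9 groups. Per the labels and methods, the authors trimmed reads with cutadapt and aligned them with STAR. The genome is written as GRCh38 although the identifiers are mouse Ensembl, and the counting program, strand setting and annotation release are not given in the sources used here. The deposited signal values are CPM that the authors scaled with edgeR normalisation factors. Whole reads were recovered from them in 100% of values (tolerance 0.01 of a read). The authors' second table repeats these values with group means and their own fold changes and p-values between groups, which were not used.

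The 10 endothelial genes and all gene lists were chosen with earlier results of these data known. Groups were taken from the sample titles. Main tests were fitted to the samples of each comparison with limma 3.58.1 (R 4.3.3, trended variance) on log2(normalised CPM + 0.25), for genes at 0.25 or more in at least 4 libraries, with Benjamini-Hochberg adjustment over all genes tested and a threshold of 0.05. All 10 genes are given in each comparison, called or not. Likeness was measured for the 6 genes with the highest r, and other lists are given by counts, naming at most the 4 genes with the highest mean level and those needed to say which were called. Alternatives were a pseudocount of 1 with a minimum of 1, a pseudocount of 0.1, no filter, quantile normalisation, upper-quartile scaling, edgeR 4.0.16 (quasi-likelihood) on the recovered reads, all 36 libraries in 1 fit, the replicate number as a block, and each library left out. Tests of differences between effects, *Pecam1* ratios, a minimum in 3 libraries and counts over genes at 0.25 or more in every library were added after seeing the data. Scripts were tested on simulated data. Summaries used Python 3.11.15 with pandas 2.3.3 and scipy 1.17.1.

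Replicate numbers were checked for pairing by the correlation of deviations from group means. Of the pairs of groups set against each other here, E12.5_NP and E12.5_SP alone had r above 0.1 for every number (0.435 to 0.642), a pairing that comes from the data and not from the labels. No 2 libraries of a group agreed within sampling noise (lowest chi-squared per degree of freedom 3.40, lowest r 0.967). Exon lengths and positions came from GENCODE vM21 (GRCm38), which held 22642 of 22761 identifiers, and promoters from RefSeq. Limits in reads cover counting error only. *Vegfd* and *Hba-a2* were not analysed here.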

Additional observations from a re-analysis of the deposited data

Results flagged for a closer look

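Within the groups of 4, 87 combinations of gene and group with any spread were examined for a library far from the other 3, and 12 were found, in 5 libraries. Chance flags about 1 in 20 groups. Of the 12, 8 were the high values of E12.5_UB-1, in normalised CPM: 28.3 for *Kdr*, 26.1 for *Cdh5*, 15.6 for *Tie1*, 14.0 for *Cldn5*, 13.3 for *Flt1*, 12.7 for *Pecam1*, 6.80 for *Emcn* and 5.73 for *Esam*. The other 4 were in separate libraries. *Kdr* was high at 11.4 in the fourth E11.5_SP library, *Cdh5* was high at 4.94 in the second E12.5_SP library, *Esam* was high at 1.78 in the third E11.5_UB library, and *Flt1* was low at 0.743 in the first iUB library.

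The difference between an mESC-derived group and its ex-fetu counterpart was larger for nephron than for stromal progenitors by a test of the difference itself (limma, adjusted over all genes). With the E11.5 groups this held on the log2 scale for *Flt1* (2.21), *Emcn* (2.34) and *Kdr* (1.47). With the E12.5 groups it held for *Tek* (2.83), *Egfl7* (1.11), *Flt1* (2.59) and *Emcn* (2.62). Both sets share the iNP and iSP libraries. Part of each value lies in the ex-fetu groups. *Flt1* and *Emcn* were called higher in E11.5_SP than in E11.5_NP, and *Tek*, *Flt1* and *Emcn* in E12.5_SP than in E12.5_NP. *Flt1* was not called between iNP and iSP.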

How the results depend on the processing

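The 10 genes gave 2571 log2 fold changes under the alternatives, of which 2451 kept their direction and their side of the threshold, 91 were no longer called, 28 became called and 1 changed direction. The last was *Tie1* in E12.5_UB against E11.5_UB, at 0.25 with all libraries, -0.69 without E12.5_UB replicate 1 and up to 0.677 without one of the others. A change of sign in a value that was called in neither setting was not counted as a change of direction (77 signs changed in all).

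Leaving out 1 library at a time, the number of genes called ran from 4 to 7 for iUB against E11.5_UB (7 with all libraries), 2 to 5 for iUB against E12.5_UB (5), 0 to 2 for E12.5_UB against E11.5_UB (0), 1 to 2 for E12.5_SP against E11.5_SP (2), 0 to 1 for E12.5_NP against E11.5_NP (1), 3 to 6 for iNP against iSP (5) and 1 to 7 for E12.5_UB against E12.5_NP and E12.5_SP (2). The losses for iUB against E11.5_UB come from the filter, since genes without a read in iUB need all 4 UB libraries to be tested. With a minimum in 3 libraries, leaving out iUB replicate 3 gave 3 calls against E12.5_UB. Pseudocount 1 and minimum 1 gave 2 calls for iUB against E12.5_UB. Quantile normalisation gave 1 (*Egfl7*) for E12.5_UB against E11.5_UB and 3 for iNP against iSP. With all 36 libraries in 1 fit, 1 gene was called for E12.5_UB against E11.5_UB (*Tek*), 1 for E12.5_SP against E11.5_SP, 0 for E12.5_NP against E11.5_NP and 1 for iNP against iSP. edgeR on recovered reads gave 1 for E12.5_UB against E12.5_NP and E12.5_SP. Except for the filter, the cause was not tested.

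In the fit blocked on replicate number, 8 genes were called for iSP against E12.5_SP instead of 7 (*Emcn* added) and 4 for iNP against iSP instead of 5 (*Tek* lost). In the paired comparison of E12.5_NP and E12.5_SP the block gave the same 4 genes. It changed no other call. Scaling moved the median of all genes by over 0.1 on the log2 scale for iNP against E11.5_NP (-0.12 with quantile normalisation, 0.12 with upper-quartile scaling), iNP against E12.5_NP (-0.10 with edgeR) and iSP against E11.5_SP (0.11 with upper-quartile scaling). Depth limits the lowest genes: 3 reads stood for up to 0.223 normalised CPM, and by the limit of each library *Cldn5* was under it in all 4 iUB and 1 of 4 E11.5_UB libraries, *Tek* in 1 of 4 E11.5_UB libraries, *Pecam1* in 2 of 4 iUB libraries, *Emcn* in 1 of 4 E12.5_UB libraries, and *Cdh5*, *Tie1* and *Emcn* in all 4 iUB libraries.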
